A study of Homo sapiens with 12 samples.

Results

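The genes described here make up the machinery that carries RNA and protein through the nuclear pore. They are 49 genes, chosen by name as mRNA export adaptors and nuclear transport receptors, of 20821 gene names tested on the arrays. Their probes were found through the RefSeq accession that the array gives each probe, which gave 67 probes. All 49 genes and all 67 probes were well above background on all 12 arrays. By role they are the export receptor NXF1 with its partners (3 genes), the TREX complex and other mRNA export adaptors (12), the TREX-2 complex (3), cap-binding proteins (3), exportins (7), the importin beta family (11), the importin alpha family (6) and Ran with its regulators (4).

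U2OS, a human osteosarcoma cell line that grows without limit in culture, received 20 nM of control siRNA or of siRNA for DBP5, GLE1 or IPPK. The cells were cultured for 48 h, and RNA of the cytoplasmic fraction was read on 12 one-colour arrays, 3 for each siRNA. The study asked how loss of each of these mRNA export regulators changes the mRNAs that reach the cytoplasm. By the labels the groups differed in the siRNA alone, and the methods describe the 3 arrays of a group as independent experiments in the same cell line.

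In human cells most mRNAs leave the nucleus on NXF1, which works as a pair with NXT1 and is brought to the transcript by adaptors such as ALYREF within TREX. TREX-2 ties transcription to the nuclear pore, and cap-binding proteins mark the front end of the RNA. Proteins and several other RNA classes travel on the karyopherins: importins bring cargo in, exportins take cargo out, and the small GTPase Ran sets the direction. DBP5, a helicase also called DDX19, acts with GLE1 and with the inositol phosphate made by IPPK on the cytoplasmic face of the pore, where it strips export factors from the mRNA that has come through.

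Levels are given as the normalised intensity of a gene's brightest probe on an array over the geometric mean of the 3 control arrays, so the control mean is 1 and the value compares arrays for a single probe, never genes with each other. Values of a group are listed in the order of replicates 1 to 3. A ratio to control compares group means of log2 intensities, the SD is taken over the 3 arrays of that siRNA, and adjusted p is that of limma over all 12 arrays with Benjamini-Hochberg adjustment over all 20821 gene names. The arrays read RNA of the cytoplasmic fraction alone, so from them a change in the making, export or decay of an RNA cannot be told apart, nor can a lower level in every cell from fewer cells holding the RNA.

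Each siRNA lowered its own target. DDX19B, the transcript of DBP5, was 0.0643 ± 0.00169 of control (SD, n = 3; adjusted p = 5.8e-11) after DBP5 knock-down, GLE1 was 0.102 ± 0.0283 of control (SD, n = 3; adjusted p = 2.2e-08) after GLE1 knock-down, and IPPK was 0.186 ± 0.00762 of control (SD, n = 3; adjusted p = 1.4e-09) after IPPK knock-down. DDX19A, which resembles DDX19B closely but is read by a separate probe, was 0.0543 ± 0.00286 of control (SD, n = 3; adjusted p = 3.5e-11) after DBP5 knock-down. It was 0.555 ± 0.0145 of control (SD, n = 3; adjusted p = 1.5e-07) after GLE1 and 0.302 ± 0.00404 of control (SD, n = 3; adjusted p = 2.7e-09) after IPPK knock-down. The targets also moved under each other's siRNA. DDX19B was 0.498 of control after GLE1 and 0.872 after IPPK knock-down, and IPPK was 0.419 after DBP5 and 0.833 after GLE1 knock-down. GLE1 was 0.713 of control after IPPK knock-down and 0.776 after DBP5 knock-down. Of these, only GLE1 after DBP5 knock-down did not pass the test (limma adjusted p = 0.0647). Of 6 markers of osteosarcoma or mesenchymal cells, 5 were well above background on all 12 arrays, and so were 2 of 9 markers of other cells. Ratios to control of those 5 mesenchymal markers ran from 0.779 to 1.71 with DBP5 siRNA, from 0.777 to 1.18 with GLE1 siRNA and from 0.253 to 1.04 with IPPK siRNA. COL1A2, the remaining mesenchymal marker, was well above background on all 3 control arrays and on none of the DBP5 or IPPK siRNA arrays. It was at least 1.48-fold and at least 1.11-fold lower there. COL1A2 entered the test only through the control arrays, where it was high, so no adjusted p is given. The other-cell markers read on all 12 arrays were PTPRC, which passed the test in no knock-down, and EPCAM, an epithelial gene, which was 0.657, 0.747 and 0.527 of control in the same order (adjusted p = 0.0396, 0.127 and 0.00469). CDH1, another epithelial gene, and ALB, a liver gene, were well above background on none of the control arrays. CDH1 entered the test only through the DBP5 and GLE1 siRNA arrays, where it was high, so no adjusted p is given. It was at least 1.63-fold higher after DBP5 and at least 8.4-fold higher after GLE1 knock-down. On the IPPK siRNA arrays it was well above background on 2 of the 3. ALB entered the test only through the DBP5 siRNA arrays, where it was high, so no adjusted p is given for it either. It was at least 2.01-fold higher after DBP5 knock-down and well above background on 2 of the 3 GLE1 siRNA arrays. Each such bound sets the mean of the brighter group against the dimmest signal well above background on each array of the dimmer group, or against the probe's own signal where that was higher. The part of these markers in the values below was not tested. Between 70.9% and 73.8% of probes were well above background on the IPPK siRNA arrays, against 74.8% to 77.4% on the control arrays. Every slide held the siRNAs in the same array positions, so position and siRNA cannot be told apart.

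Transport genes moved in both directions after every knock-down. After DBP5 knock-down 18 of the 49 members fell (36.7%) and 15 rose (30.6%), where 27.1% of all genes tested fell and 27.3% rose. GLE1 knock-down lowered 22 members (44.9%) and raised 16 (32.7%), beside 30.4% and 32.1% of all genes. After IPPK knock-down 19 fell (38.8%) and 16 rose (32.7%), beside 28.2% and 27.3%. The members were all measured well above background, as were 18420 of the 20821 genes, so the shares of all genes include dimmer probes. With a change of at least 1.5-fold added to the test, fewer members passed. After DBP5 knock-down 6 members fell (12.2%) and 7 rose (14.3%), beside 12% and 12.7% of all genes. The same limits gave 10 lower (20.4%) and 11 higher (22.4%) after GLE1 knock-down, beside 17.1% and 16.7%. For IPPK knock-down they gave 5 lower (10.2%) and 9 higher (18.4%), beside 12.7% and 13.1%. The median size of change, as an absolute log2 ratio, was 0.29 for members and 0.30 for all genes with DBP5 siRNA, 0.44 and 0.38 with GLE1 siRNA, and 0.25 and 0.31 with IPPK siRNA. Counts go by the brightest probe of a gene. POLDIP3 thus counts as lower after every knock-down, also at 1.5-fold after DBP5 and GLE1, and IPO5 as lower after IPPK knock-down. Other probes of these genes passed the test in the opposite direction there. These counts describe the list and carry no test of it. The same holds for the counts by role below, where 1 gene more or less shifts a share widely, and each is to be read against the shares of all genes just given.

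**Figure D1:**
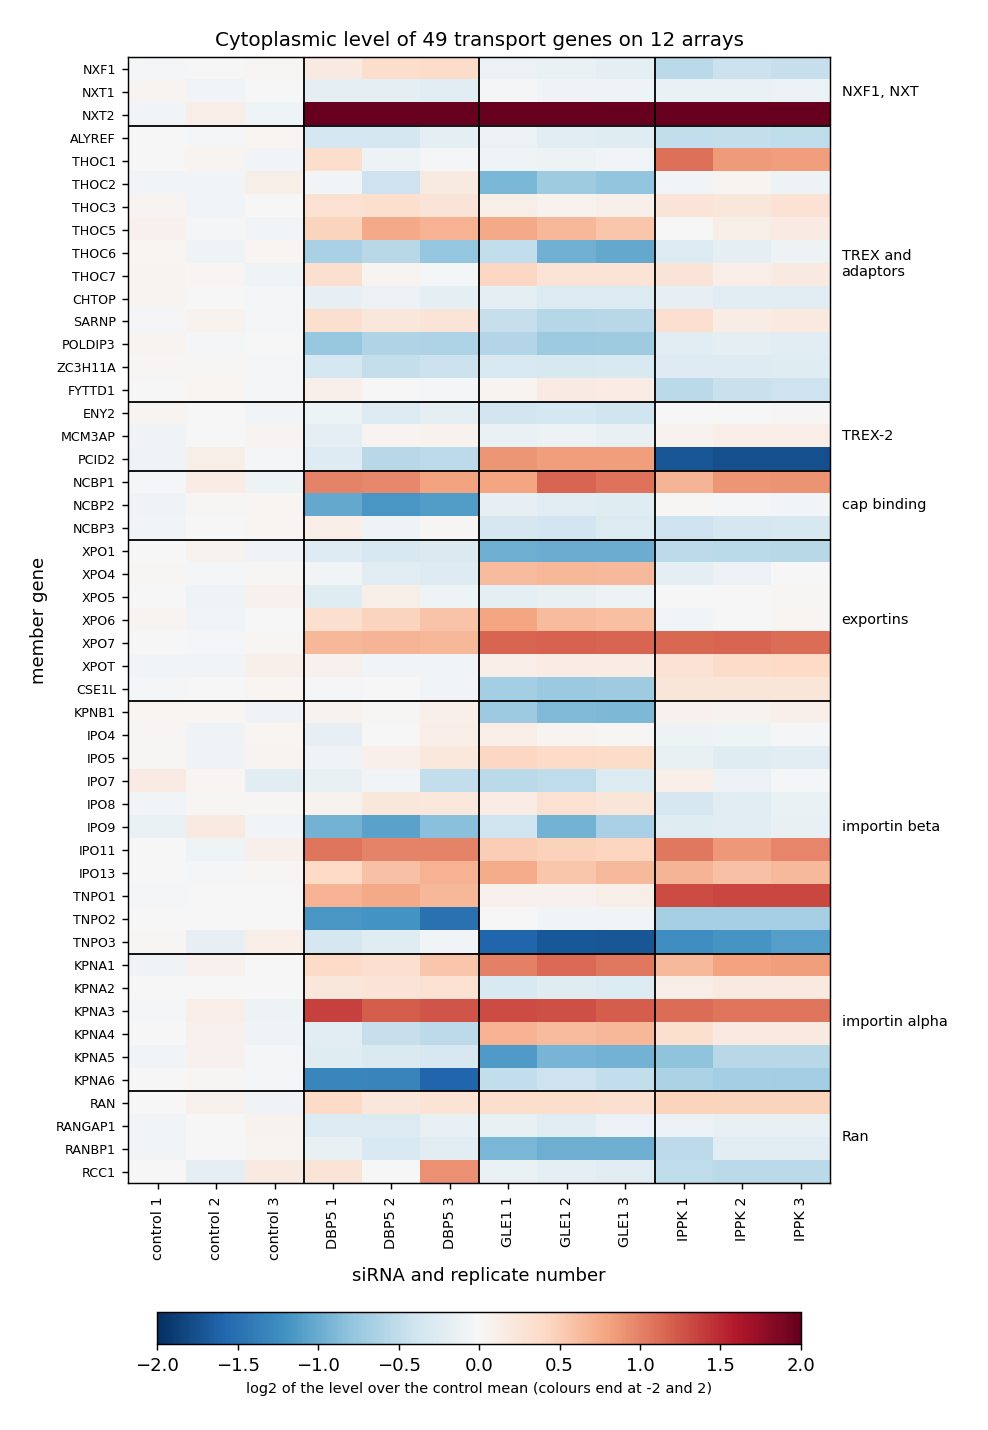
Level of each of the 49 members (rows, by role) on each of the 12 arrays (columns, by siRNA and replicate number), coloured by the log2 of the level over the control mean, with blue below and red above control. NXT2 lies beyond the end of the scale on all 9 knock-down arrays, and PCID2 is red on the GLE1 siRNA arrays and blue on the IPPK siRNA arrays.

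Of the 49 members, NXT2 rose to the highest ratio after each knock-down. NXT2, a paralog of the NXF1 partner NXT1, read 0.968, 1.10 and 0.943 on the control arrays, 9.58, 7.39 and 7.37 after DBP5, 8.46, 8.24 and 8.45 after GLE1 and 11.4, 9.56 and 10.1 after IPPK knock-down. All 9 knock-down arrays lay far above all control arrays. NXT2 was 8.05 ± 1.27 of control with DBP5 siRNA, 8.38 ± 0.123 with GLE1 siRNA and 10.3 ± 0.976 with IPPK siRNA (SD, n = 3), with adjusted p of 1.0e-08, 3.8e-09 and 4.3e-09. The second, dimmer probe of NXT2 rose as well, but to 2.44 ± 0.650, 2.10 ± 0.157 and 2.77 ± 0.0307 of control, so the size of the rise depended on the probe. NXT1 read 1.04, 0.967 and 0.996 on the control arrays, 0.880, 0.873 and 0.853 after DBP5, 0.969, 0.950 and 0.943 after GLE1 and 0.917, 0.915 and 0.920 after IPPK knock-down. Its DBP5 and IPPK siRNA arrays lay below all control arrays by a small step, and its GLE1 siRNA arrays overlapped them. NXT1 was 0.868 ± 0.0140 of control with DBP5 siRNA, 0.954 ± 0.0133 with GLE1 siRNA and 0.917 ± 0.00275 with IPPK siRNA (SD, n = 3), with adjusted p of 0.00194, 0.191 and 0.0277. Its small fall after IPPK knock-down lost the threshold without control replicate 1 or 3 or without any 1 IPPK siRNA array, with adjusted p up to 0.111.

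NXF1, the main receptor for mRNA export, separated the knock-downs. Its level was 0.985, 0.998 and 1.02 on the control arrays, 1.14, 1.27 and 1.29 after DBP5, 0.918, 0.911 and 0.877 after GLE1 and 0.687, 0.739 and 0.724 after IPPK knock-down. DBP5 siRNA arrays lay above all control arrays, whereas GLE1 and IPPK siRNA arrays lay below them. NXF1 was 1.23 ± 0.0833 of control with DBP5 siRNA, 0.902 ± 0.0220 with GLE1 siRNA and 0.716 ± 0.0270 with IPPK siRNA (SD, n = 3), with adjusted p of 0.0011, 0.0421 and 3.8e-05. The fall after GLE1 knock-down was small and lost the threshold when any 1 control array, any 1 GLE1 siRNA array or IPPK replicate 2 or 3 was left out, with adjusted p up to 0.127. NXF1 was 1.72-fold higher after DBP5 than after IPPK knock-down (adjusted p = 1.7e-06) and 1.26-fold higher after GLE1 than after IPPK knock-down (adjusted p = 0.000475).

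The RefSeq promoter table (build GRCh38.p14) holds 41 of the 49 members, with 54 start sites of 300 bases each, 250 before and 50 after the start, and not THOC7, NCBP1, ENY2, XPO7, KPNA4, KPNA5, KPNB1 or RANBP1. They were searched on both strands for CCAAT, the letters of an NF-Y box, for TTTGAA, the letters of the cell cycle homology region, and for the E2F letters TTTGGCGC or TTTCGCGC. None of these motifs contains another. CCAAT stood in 20 of the 54 promoters (37%) and in 34.6% of the 35097 promoters of the table, and TTTGAA in 7 (13%) and in 15.2%. E2F letters stood in 3 of the 54, those of FYTTD1, IPO11 and IPO7, and in 1.15% of the table. A match describes letters only. Of the 3 listed starts of NXT2, the member with the widest change, the first is shown here because it alone holds CCAAT, which reads ATTGG on the printed strand and stands in capitals.
NXT2, chrX:109535574-109535873, + strand: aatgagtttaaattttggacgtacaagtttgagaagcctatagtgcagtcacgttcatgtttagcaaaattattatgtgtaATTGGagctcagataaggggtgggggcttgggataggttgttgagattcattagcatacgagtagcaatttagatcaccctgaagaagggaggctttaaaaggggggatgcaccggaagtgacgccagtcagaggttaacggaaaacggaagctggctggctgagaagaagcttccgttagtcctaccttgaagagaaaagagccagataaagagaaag

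TREX and the other mRNA export adaptors number 12 genes. DBP5 knock-down lowered 5 of them (41.7%) and raised 3 (25%), beside 27.1% and 27.3% of all genes. GLE1 knock-down lowered 7 (58.3%) and raised 2 (16.7%), beside 30.4% and 32.1%, and IPPK knock-down lowered 5 and raised 3, beside 28.2% and 27.3%. The median log2 ratio was -0.04, -0.22 and -0.11 in that order, where the median of all genes was -0.02, 0.03 and -0.03. Each lower count includes POLDIP3 by its brighter probe, although its other probe rose after every knock-down and no direction is given for it below. ALYREF, the adaptor that hands mRNA to NXF1, read 1.00, 0.978 and 1.02 on the control arrays, 0.784, 0.785 and 0.874 after DBP5, 0.927, 0.852 and 0.843 after GLE1 and 0.712, 0.718 and 0.705 after IPPK knock-down. The knock-down arrays were all under the control range, lowest after IPPK. ALYREF was 0.813 ± 0.0516 of control with DBP5 siRNA, 0.873 ± 0.0460 with GLE1 siRNA and 0.712 ± 0.00645 with IPPK siRNA (SD, n = 3), with adjusted p of 0.00117, 0.012 and 3.4e-05. The fall of ALYREF after GLE1 knock-down lost the threshold under quantile normalisation (adjusted p = 0.0612).

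Subunits of THO, the core of TREX, moved in different directions. THOC1 read 0.997, 1.04 and 0.966 on the control arrays, 1.28, 0.927 and 0.979 after DBP5, 0.940, 0.934 and 0.958 after GLE1 and 2.14, 1.80 and 1.79 after IPPK knock-down. Its IPPK siRNA arrays stood clear above control, its DBP5 siRNA arrays overlapped it and its GLE1 siRNA arrays lay just below. THOC1 was 1.90 ± 0.198 of control (SD, n = 3; adjusted p = 4.5e-05) after IPPK knock-down, 1.05 ± 0.188 after DBP5 (adjusted p = 0.649) and 0.944 ± 0.0122 after GLE1 (adjusted p = 0.562). THOC2, the scaffold of THO, read 0.963, 0.962 and 1.08 on the control arrays, 0.964, 0.752 and 1.13 after DBP5, 0.532, 0.614 and 0.581 after GLE1 and 0.959, 1.04 and 0.933 after IPPK knock-down. It stood below control on the GLE1 siRNA arrays and overlapped control on the others. THOC2 fell to 0.575 ± 0.0411 of control (SD, n = 3; adjusted p = 0.000287) after GLE1 knock-down, with 0.937 ± 0.192 after DBP5 and 0.976 ± 0.0543 after IPPK knock-down (adjusted p = 0.59 and 0.844). Its dimmer probe gave 0.509 ± 0.0434 after GLE1 knock-down but 1.36 ± 0.0350 after IPPK knock-down (adjusted p = 0.000434). THOC5 read 1.06, 0.980 and 0.960 on the control arrays, 1.36, 1.69 and 1.62 after DBP5, 1.68, 1.58 and 1.46 after GLE1 and 1.00, 1.08 and 1.13 after IPPK knock-down. DBP5 and GLE1 siRNA arrays were above all control arrays, and IPPK siRNA arrays overlapped them. THOC5 was 1.55 ± 0.177 of control with DBP5 siRNA, 1.57 ± 0.110 with GLE1 siRNA and 1.07 ± 0.0637 with IPPK siRNA (SD, n = 3), with adjusted p of 0.000155, 9.3e-05 and 0.411. THOC6 read 1.03, 0.939 and 1.03 on the control arrays, 0.638, 0.684 and 0.586 after DBP5, 0.714, 0.513 and 0.495 after GLE1 and 0.831, 0.884 and 0.928 after IPPK knock-down. It lay below control on every knock-down array, less so after IPPK. THOC6 was 0.635 ± 0.0487 of control with DBP5 siRNA, 0.566 ± 0.122 with GLE1 siRNA and 0.880 ± 0.0489 with IPPK siRNA (SD, n = 3), with adjusted p of 0.00122, 0.000198 and 0.248.

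Among the adaptors outside THO, SARNP and FYTTD1 each set 1 knock-down apart. SARNP, which binds the TREX helicase DDX39B, read 0.969, 1.05 and 0.985 on the control arrays, 1.25, 1.17 and 1.19 after DBP5, 0.729, 0.674 and 0.681 after GLE1 and 1.26, 1.11 and 1.15 after IPPK knock-down. The DBP5 and IPPK siRNA arrays were above and the GLE1 siRNA arrays below all control arrays. SARNP was 1.20 ± 0.0389 of control with DBP5 siRNA, 0.694 ± 0.0303 with GLE1 siRNA and 1.17 ± 0.0771 with IPPK siRNA (SD, n = 3), with adjusted p of 0.00365, 2.3e-05 and 0.00872. FYTTD1, an adaptor for NXF1 also called UIF, read 1.00, 1.02 and 0.973 on the control arrays, 1.07, 1.01 and 0.974 after DBP5, 1.04, 1.11 and 1.11 after GLE1 and 0.686, 0.734 and 0.751 after IPPK knock-down. Its IPPK siRNA arrays alone lay below control. FYTTD1 was 1.02 ± 0.0488 of control with DBP5 siRNA, 1.09 ± 0.0421 with GLE1 siRNA and 0.723 ± 0.0334 with IPPK siRNA (SD, n = 3), with adjusted p of 0.773, 0.0885 and 4.1e-05. POLDIP3, an ALYREF-like protein also called SKAR, read 1.03, 0.975 and 0.993 on the control arrays, 0.591, 0.660 and 0.648 after DBP5, 0.669, 0.607 and 0.611 after GLE1 and 0.851, 0.871 and 0.855 after IPPK knock-down with its brighter probe. That probe was below control on all 9 knock-down arrays. It gave 0.633 ± 0.0368 of control with DBP5 siRNA, 0.628 ± 0.0344 with GLE1 siRNA and 0.859 ± 0.0107 with IPPK siRNA (SD, n = 3), with adjusted p of 4.3e-06, 2.4e-06 and 0.00809. The other probe, placed on accession NM_178136, went the opposite way, to 1.47 ± 0.0162, 1.56 ± 0.0294 and 1.40 ± 0.0290 of control (adjusted p = 4.0e-06, 7.3e-07 and 1.0e-05), so no direction is given for POLDIP3 as a gene. The remaining 4 genes of this group stayed within 1.5-fold of control. CHTOP and ZC3H11A, both TREX components, fell after every knock-down, with ratios from 0.745 to 0.894. THOC3 rose after DBP5 and IPPK knock-down and THOC7 after GLE1 knock-down, and ratios of these THO subunits ran from 1.07 to 1.25.

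PCID2, a subunit of TREX-2, had the widest spread between knock-downs of all members. It read 0.942, 1.08 and 0.979 on the control arrays, 0.838, 0.679 and 0.697 after DBP5, 1.85, 1.79 and 1.78 after GLE1 and 0.305, 0.295 and 0.295 after IPPK knock-down. The GLE1 siRNA arrays were above all control arrays, the DBP5 siRNA arrays below them, and the IPPK siRNA arrays lowest of all. PCID2 was 0.735 ± 0.0872 of control with DBP5 siRNA, 1.80 ± 0.0365 with GLE1 siRNA and 0.298 ± 0.00615 with IPPK siRNA (SD, n = 3), with adjusted p of 0.000863, 5.3e-06 and 4.1e-08. It was 6.05-fold higher after GLE1 than after IPPK knock-down (adjusted p = 2.8e-09) and 2.46-fold higher with GLE1 than with DBP5 siRNA (adjusted p = 3.6e-07). The second PCID2 probe gave 0.758 ± 0.0358, 1.90 ± 0.0357 and 0.281 ± 0.00732 of control. Of the other TREX-2 genes, ENY2 fell after DBP5 and GLE1 knock-down and MCM3AP, the scaffold, passed the test in no knock-down, with ratios of both from 0.772 to 1.08. The PCID2 promoter is printed because PCID2 had the widest difference between knock-downs, and it holds none of the searched letters.
PCID2, chr13:113208620-113208919, - strand: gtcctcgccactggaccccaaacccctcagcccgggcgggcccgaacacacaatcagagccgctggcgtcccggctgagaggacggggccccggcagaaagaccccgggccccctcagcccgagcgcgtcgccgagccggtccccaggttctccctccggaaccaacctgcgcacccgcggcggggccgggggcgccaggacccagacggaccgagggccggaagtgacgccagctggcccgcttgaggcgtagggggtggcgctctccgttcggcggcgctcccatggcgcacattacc

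The genes of the cap-binding complex moved apart. NCBP2, the small subunit that holds the cap, read 0.957, 1.02 and 1.02 on the control arrays, 0.490, 0.446 and 0.460 after DBP5, 0.888, 0.857 and 0.843 after GLE1 and 1.02, 0.974 and 0.965 after IPPK knock-down. It was low on the DBP5 siRNA arrays, slightly below control after GLE1 and level with control after IPPK knock-down. NCBP2 was 0.465 ± 0.0228 of control with DBP5 siRNA, 0.862 ± 0.0233 with GLE1 siRNA and 0.986 ± 0.0280 with IPPK siRNA (SD, n = 3), with adjusted p of 5.9e-08, 0.00458 and 0.773. It was 2.12-fold lower after DBP5 than after IPPK knock-down (adjusted p = 1.1e-07). NCBP1, the large subunit, read 0.972, 1.11 and 0.928 on the control arrays, 1.99, 1.94 and 1.74 after DBP5, 1.73, 2.25 and 2.13 after GLE1 and 1.60, 1.84 and 1.86 after IPPK knock-down with its brighter probe. All knock-down arrays of that probe lay above control. NCBP1 was 1.89 ± 0.131 of control with DBP5 siRNA, 2.03 ± 0.271 with GLE1 siRNA and 1.76 ± 0.143 with IPPK siRNA (SD, n = 3), with adjusted p of 4.5e-05, 1.4e-05 and 0.000101 by that probe. Its dimmer probe passed the test in no knock-down, at 1.19 ± 0.154, 0.932 ± 0.0837 and 1.07 ± 0.141 of control (adjusted p = 0.114, 0.507 and 0.529). NCBP3, an alternative cap-binding protein, fell after GLE1 and IPPK knock-down, with ratios from 0.780 to 1.02. The NCBP2 promoter is shown for its fall after DBP5 knock-down, and capitals mark CCAAT on either strand.
NCBP2, chr3:196942479-196942778, - strand: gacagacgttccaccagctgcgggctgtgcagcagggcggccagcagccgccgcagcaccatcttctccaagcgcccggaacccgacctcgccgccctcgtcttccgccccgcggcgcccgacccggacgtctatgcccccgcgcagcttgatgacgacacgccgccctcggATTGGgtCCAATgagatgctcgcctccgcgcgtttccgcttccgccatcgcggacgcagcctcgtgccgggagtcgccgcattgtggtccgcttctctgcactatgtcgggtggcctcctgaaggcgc

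**Figure D2:**
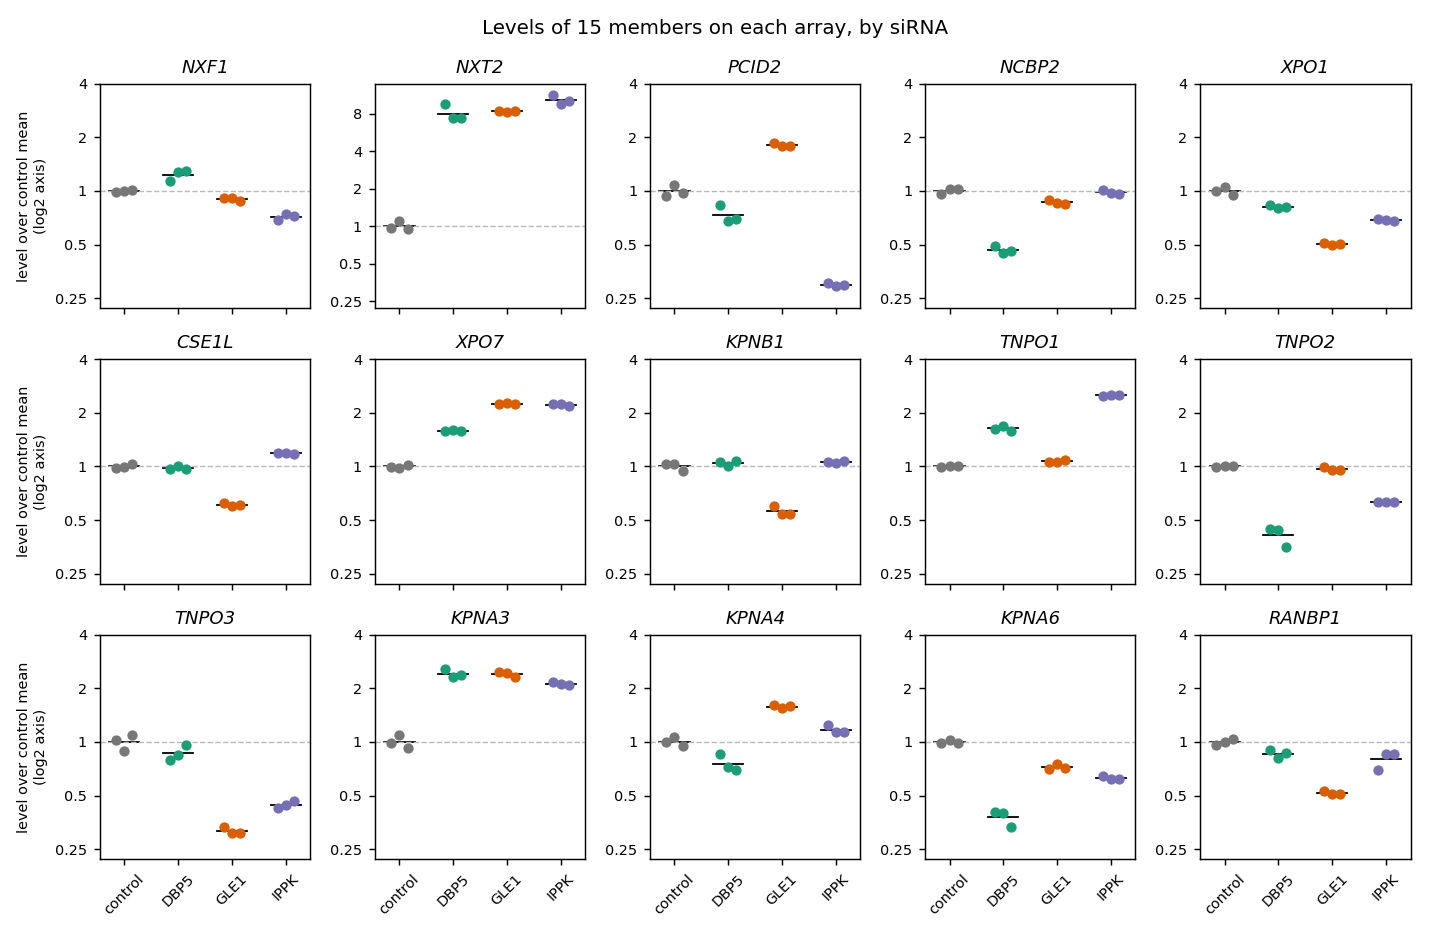
Level of 15 members over the control mean (vertical log2 axis, longer for NXT2) on each array, by siRNA, with a bar at the mean of the log2 levels of each group. The 3 arrays of a group lie close together, and the order of the siRNAs differs from gene to gene: XPO1, CSE1L and KPNB1 are lowest after GLE1 knock-down, NCBP2, TNPO2 and KPNA6 after DBP5 knock-down, and PCID2 after IPPK knock-down.

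Of the 7 exportins, 2 fell and 2 rose after DBP5 knock-down (28.6% each), beside 27.1% and 27.3% of all genes. After GLE1 knock-down 2 fell (28.6%) and 3 rose (42.9%), beside 30.4% and 32.1%, and after IPPK knock-down 1 fell (14.3%) and 3 rose (42.9%), beside 28.2% and 27.3%. XPO1, also called CRM1, exports proteins with leucine-rich signals, some RNAs and ribosomal subunits. XPO1 read 1.00, 1.05 and 0.951 on the control arrays, 0.833, 0.804 and 0.816 after DBP5, 0.510, 0.50 and 0.502 after GLE1 and 0.696, 0.688 and 0.683 after IPPK knock-down. The 9 knock-down arrays were all under the control range, and the 3 knock-downs did not overlap each other. XPO1 was 0.818 ± 0.0149 of control with DBP5 siRNA, 0.504 ± 0.00497 with GLE1 siRNA and 0.689 ± 0.00688 with IPPK siRNA (SD, n = 3), with adjusted p of 0.000308, 2.3e-08 and 3.2e-06. It was 1.62-fold lower after GLE1 than after DBP5 knock-down and 1.37-fold lower after GLE1 than after IPPK knock-down (adjusted p = 4.8e-07 and 9.9e-06). CSE1L, which returns importin alpha to the cytoplasm, read 0.975, 0.994 and 1.03 on the control arrays, 0.969, 1.00 and 0.967 after DBP5, 0.623, 0.600 and 0.612 after GLE1 and 1.19, 1.18 and 1.18 after IPPK knock-down. Its GLE1 siRNA arrays were below, its IPPK siRNA arrays slightly above and its DBP5 siRNA arrays within the control range or just under it. CSE1L was 0.978 ± 0.0184 of control with DBP5 siRNA, 0.611 ± 0.0113 with GLE1 siRNA and 1.18 ± 0.00523 with IPPK siRNA (SD, n = 3), with adjusted p of 0.569, 1.2e-07 and 0.000516. Both CSE1L probes gave this order, the dimmer at 0.595 ± 0.00627 of control after GLE1 knock-down.

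XPO7, an exportin with a broad range of cargo, read 0.999, 0.985 and 1.02 on the control arrays, 1.58, 1.60 and 1.58 after DBP5, 2.24, 2.28 and 2.23 after GLE1 and 2.23, 2.24 and 2.18 after IPPK knock-down. All knock-down arrays were above control, with DBP5 the lowest of them. XPO7 was 1.59 ± 0.0110 of control with DBP5 siRNA, 2.25 ± 0.0241 with GLE1 siRNA and 2.22 ± 0.0338 with IPPK siRNA (SD, n = 3), with adjusted p of 2.1e-07, 2.3e-09 and 4.9e-09. XPO6, the exportin for actin, read 1.03, 0.959 and 1.01 on the control arrays, 1.24, 1.37 and 1.48 after DBP5, 1.73, 1.55 and 1.51 after GLE1 and 0.960, 0.993 and 1.03 after IPPK knock-down. DBP5 and GLE1 siRNA arrays were above control and IPPK siRNA arrays overlapped it. XPO6 was 1.36 ± 0.119 of control with DBP5 siRNA, 1.59 ± 0.115 with GLE1 siRNA and 0.994 ± 0.0362 with IPPK siRNA (SD, n = 3), with adjusted p of 0.000477, 1.7e-05 and 0.943. XPO4 read 1.01, 0.971 and 1.02 on the control arrays, 0.966, 0.869 and 0.836 after DBP5, 1.56, 1.59 and 1.56 after GLE1 and 0.878, 0.925 and 1.00 after IPPK knock-down. It stood above control after GLE1 knock-down only. XPO4 was 0.888 ± 0.0679 of control with DBP5 siRNA, 1.57 ± 0.0141 with GLE1 siRNA and 0.933 ± 0.0616 with IPPK siRNA (SD, n = 3), with adjusted p of 0.0473, 7.6e-06 and 0.226. The small fall of XPO4 after DBP5 knock-down lost the threshold without any 1 of the control arrays and without either DBP5 replicate 2 or 3, with adjusted p up to 0.16, and also without any 1 GLE1 siRNA array or IPPK replicate 2. With the replicate number as a block it did not pass either (adjusted p = 0.0645). XPO5, the exportin for microRNA precursors, passed the test in no knock-down by its brightest probe, with ratios from 0.905 to 1.00, and XPOT, the tRNA exportin, rose after IPPK knock-down to 1.28 of control. The promoters of XPO1 (its first listed start) and CSE1L are shown because both genes were lowest after GLE1 knock-down. Capitals mark CCAAT on either strand in both, and TTTGAA or its complement in CSE1L.
XPO1, chr2:61538307-61538606, - strand: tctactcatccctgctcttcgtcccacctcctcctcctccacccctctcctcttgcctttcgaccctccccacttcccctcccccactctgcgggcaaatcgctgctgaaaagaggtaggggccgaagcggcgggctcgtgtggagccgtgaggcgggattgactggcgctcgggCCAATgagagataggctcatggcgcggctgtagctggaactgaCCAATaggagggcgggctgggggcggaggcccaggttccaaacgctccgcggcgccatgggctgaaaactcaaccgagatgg
CSE1L, chr20:49046062-49046361, + strand: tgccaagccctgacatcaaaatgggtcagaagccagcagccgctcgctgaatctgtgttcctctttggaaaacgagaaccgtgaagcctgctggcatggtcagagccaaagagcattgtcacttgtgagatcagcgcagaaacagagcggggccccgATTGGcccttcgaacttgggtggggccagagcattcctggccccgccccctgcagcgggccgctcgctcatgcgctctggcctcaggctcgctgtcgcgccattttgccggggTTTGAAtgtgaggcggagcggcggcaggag

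In the importin beta family of 11 genes, 2 fell (18.2%) and 3 rose (27.3%) after DBP5 knock-down, beside 27.1% and 27.3% of all genes. GLE1 siRNA gave 4 lower and 4 higher (36.4% each), beside 30.4% and 32.1%. IPPK siRNA gave 4 lower (36.4%) and 3 higher (27.3%), beside 28.2% and 27.3%. The 4 lower after IPPK knock-down include IPO5 by its brighter probe, while its other probe rose there. KPNB1, importin beta itself, carries importin alpha and its cargo through the pore. KPNB1 read 1.03, 1.03 and 0.948 on the control arrays, 1.05, 1.01 and 1.07 after DBP5, 0.602, 0.544 and 0.539 after GLE1 and 1.06, 1.05 and 1.07 after IPPK knock-down. Only the GLE1 siRNA arrays were far below control. KPNB1 was 0.561 ± 0.0353 of control (SD, n = 3; adjusted p = 3.6e-07) after GLE1 knock-down, 1.04 after DBP5 (95% interval 0.957 to 1.14; adjusted p = 0.4) and 1.06 after IPPK knock-down (95% interval 0.972 to 1.16; adjusted p = 0.232). The difference between GLE1 and the other knock-downs was 1.86-fold and 1.89-fold (adjusted p = 3.7e-07 and 2.3e-07). The second KPNB1 probe gave 0.479 ± 0.0185 of control after GLE1 knock-down.

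Transportins, the importers of RNA-binding proteins, each had an order of their own. TNPO1, which imports hnRNP proteins, read 0.988, 1.00 and 1.01 on the control arrays, 1.62, 1.69 and 1.59 after DBP5, 1.06, 1.06 and 1.08 after GLE1 and 2.48, 2.51 and 2.53 after IPPK knock-down. DBP5 siRNA arrays were above control, IPPK siRNA arrays higher still, and GLE1 siRNA arrays just above it. TNPO1 was 1.63 ± 0.0543 of control with DBP5 siRNA, 1.07 ± 0.0143 with GLE1 siRNA and 2.51 ± 0.0240 with IPPK siRNA (SD, n = 3), with adjusted p of 2.3e-07, 0.0726 and 3.5e-09. TNPO2, its paralog, read 0.991, 1.00 and 1.01 on the control arrays, 0.447, 0.438 and 0.354 after DBP5, 0.993, 0.960 and 0.960 after GLE1 and 0.633, 0.631 and 0.631 after IPPK knock-down. DBP5 and IPPK siRNA arrays were below control, while GLE1 siRNA arrays overlapped it. TNPO2 was 0.411 ± 0.0515 of control with DBP5 siRNA, 0.971 ± 0.0190 with GLE1 siRNA and 0.632 ± 0.00136 with IPPK siRNA (SD, n = 3), with adjusted p of 3.1e-07, 0.676 and 3.6e-05. Between DBP5 and IPPK knock-down TNPO1 was 1.53-fold and TNPO2 1.54-fold lower after DBP5 (adjusted p = 9.2e-07 and 8.3e-05). TNPO3, the importer of SR splicing factors, read 1.02, 0.894 and 1.10 on the control arrays, 0.792, 0.847 and 0.965 after DBP5, 0.334, 0.308 and 0.307 after GLE1 and 0.424, 0.441 and 0.465 after IPPK knock-down. GLE1 and IPPK siRNA arrays were far below control, and DBP5 siRNA arrays overlapped it. TNPO3 was 0.865 ± 0.0884 of control with DBP5 siRNA, 0.316 ± 0.0153 with GLE1 siRNA and 0.443 ± 0.0205 with IPPK siRNA (SD, n = 3), with adjusted p of 0.0769, 7.3e-08 and 1.5e-06. The dimmer TNPO3 probe fell less, to 0.568 ± 0.0619 after GLE1 and 0.658 ± 0.0327 after IPPK knock-down.

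Among the numbered importins, IPO11 and IPO13 rose after every knock-down and IPO9 fell after DBP5 and GLE1 knock-down. IPO11 read 0.992, 0.944 and 1.07 on the control arrays, 2.09, 1.98 and 1.99 after DBP5, 1.41, 1.38 and 1.35 after GLE1 and 2.09, 1.83 and 1.97 after IPPK knock-down. All knock-down arrays were above control, GLE1 the least. IPO11 was 2.02 ± 0.0632 of control with DBP5 siRNA, 1.38 ± 0.0284 with GLE1 siRNA and 1.96 ± 0.127 with IPPK siRNA (SD, n = 3), with adjusted p of 3.4e-07, 7.2e-05 and 4.0e-07. IPO13, which carries cargo both ways, read 0.997, 0.985 and 1.02 on the control arrays, 1.32, 1.5 and 1.62 after DBP5, 1.67, 1.46 and 1.56 after GLE1 and 1.61, 1.51 and 1.56 after IPPK knock-down. All 9 knock-down arrays were above control and the knock-downs overlapped each other. IPO13 was 1.47 ± 0.153 of control with DBP5 siRNA, 1.56 ± 0.102 with GLE1 siRNA and 1.56 ± 0.0518 with IPPK siRNA (SD, n = 3), with adjusted p of 0.000118, 3.0e-05 and 4.2e-05. IPO9, an importer of histones and actin, read 0.913, 1.13 and 0.967 on the control arrays, 0.522, 0.477 and 0.559 after DBP5, 0.758, 0.520 and 0.637 after GLE1 and 0.848, 0.851 and 0.907 after IPPK knock-down. Every knock-down array was below control, those of IPPK by the least. IPO9 was 0.518 ± 0.0408 of control with DBP5 siRNA, 0.631 ± 0.119 with GLE1 siRNA and 0.868 ± 0.0330 with IPPK siRNA (SD, n = 3), with adjusted p of 0.000111, 0.00104 and 0.213. IPO5, an importer of ribosomal proteins and histones, read 1.02, 0.949 and 1.04 on the control arrays, 0.955, 1.07 and 1.16 after DBP5, 1.34, 1.30 and 1.29 after GLE1 and 0.902, 0.846 and 0.851 after IPPK knock-down with its brighter probe. That probe was above control after GLE1 and below it after IPPK knock-down. It gave 1.06 ± 0.103 of control with DBP5 siRNA, 1.31 ± 0.0214 with GLE1 siRNA and 0.866 ± 0.0310 with IPPK siRNA (SD, n = 3), with adjusted p of 0.372, 0.0006 and 0.0281. The dimmer IPO5 probe rose in each case, to 1.43 ± 0.0448, 2.68 ± 0.0541 and 1.18 ± 0.0421 of control (adjusted p = 6.6e-06, 2.6e-09 and 0.00168), so the direction after IPPK knock-down depended on the probe. The fall by the brighter probe also lost the threshold without control replicate 1 or 3 or IPPK replicate 2 or 3, with adjusted p up to 0.0901. IPO4 passed the test in no knock-down, IPO7 fell after GLE1 knock-down, and IPO8 rose after GLE1 and fell after IPPK knock-down, with ratios of these 3 genes from 0.738 to 1.17.

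All 6 importin alpha genes, whose products read the classical import signal, passed the test in every knock-down, in mixed directions. They were 3 lower and 3 higher (50% each) with DBP5 siRNA, beside 27.1% and 27.3% of all genes, 3 and 3 with GLE1 siRNA, beside 30.4% and 32.1%, and 2 lower (33.3%) and 4 higher (66.7%) with IPPK siRNA, beside 28.2% and 27.3%. KPNA3 read 0.980, 1.10 and 0.928 on the control arrays, 2.57, 2.30 and 2.38 after DBP5, 2.47, 2.45 and 2.32 after GLE1 and 2.16, 2.10 and 2.10 after IPPK knock-down. The 9 knock-down arrays were far above all control arrays. KPNA3 was 2.42 ± 0.136 of control with DBP5 siRNA, 2.41 ± 0.0787 with GLE1 siRNA and 2.12 ± 0.0352 with IPPK siRNA (SD, n = 3), with adjusted p of 1.3e-07, 6.2e-08 and 3.3e-07. KPNA1 read 0.950, 1.06 and 0.991 on the control arrays, 1.30, 1.26 and 1.46 after DBP5, 2.01, 2.19 and 2.08 after GLE1 and 1.57, 1.75 and 1.78 after IPPK knock-down. Its arrays lay above control in the order DBP5, IPPK, GLE1. KPNA1 was 1.34 ± 0.107 of control with DBP5 siRNA, 2.09 ± 0.0910 with GLE1 siRNA and 1.70 ± 0.114 with IPPK siRNA (SD, n = 3), with adjusted p of 0.000696, 4.9e-07 and 9.4e-06. KPNA6 read 0.993, 1.02 and 0.989 on the control arrays, 0.407, 0.401 and 0.332 after DBP5, 0.709, 0.753 and 0.713 after GLE1 and 0.646, 0.622 and 0.619 after IPPK knock-down. Each knock-down array was below control, and those of DBP5 were lowest. KPNA6 was 0.378 ± 0.0413 of control with DBP5 siRNA, 0.725 ± 0.0244 with GLE1 siRNA and 0.629 ± 0.0144 with IPPK siRNA (SD, n = 3), with adjusted p of 1.1e-07, 0.000233 and 2.1e-05, and its second probe gave 0.442 ± 0.0161, 0.707 ± 0.0181 and 0.625 ± 0.0260. KPNA5 read 0.961, 1.07 and 0.975 on the control arrays, 0.850, 0.818 and 0.803 after DBP5, 0.455, 0.527 and 0.521 after GLE1 and 0.571, 0.678 and 0.681 after IPPK knock-down. Here too every knock-down array was below control, with GLE1 the lowest. KPNA5 was 0.823 ± 0.0238 of control with DBP5 siRNA, 0.50 ± 0.0401 with GLE1 siRNA and 0.641 ± 0.0628 with IPPK siRNA (SD, n = 3), with adjusted p of 0.0159, 1.9e-06 and 8.0e-05, and its fall after DBP5 knock-down lost the threshold without control replicate 2 (adjusted p = 0.0617). KPNA4 read 0.996, 1.06 and 0.945 on the control arrays, 0.856, 0.724 and 0.699 after DBP5, 1.62, 1.54 and 1.58 after GLE1 and 1.24, 1.14 and 1.13 after IPPK knock-down. Its DBP5 siRNA arrays were below and its GLE1 and IPPK siRNA arrays above control. KPNA4 was 0.757 ± 0.0844 of control with DBP5 siRNA, 1.58 ± 0.0358 with GLE1 siRNA and 1.17 ± 0.0614 with IPPK siRNA (SD, n = 3), with adjusted p of 0.00147, 3.3e-05 and 0.033. The rise after IPPK knock-down lost the threshold without control replicate 1 or 3 or IPPK replicate 1 or 2, with adjusted p up to 0.112. KPNA2 rose slightly after DBP5 and IPPK knock-down and fell after GLE1 knock-down, with ratios from 0.830 to 1.20.

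**Figure D3:**
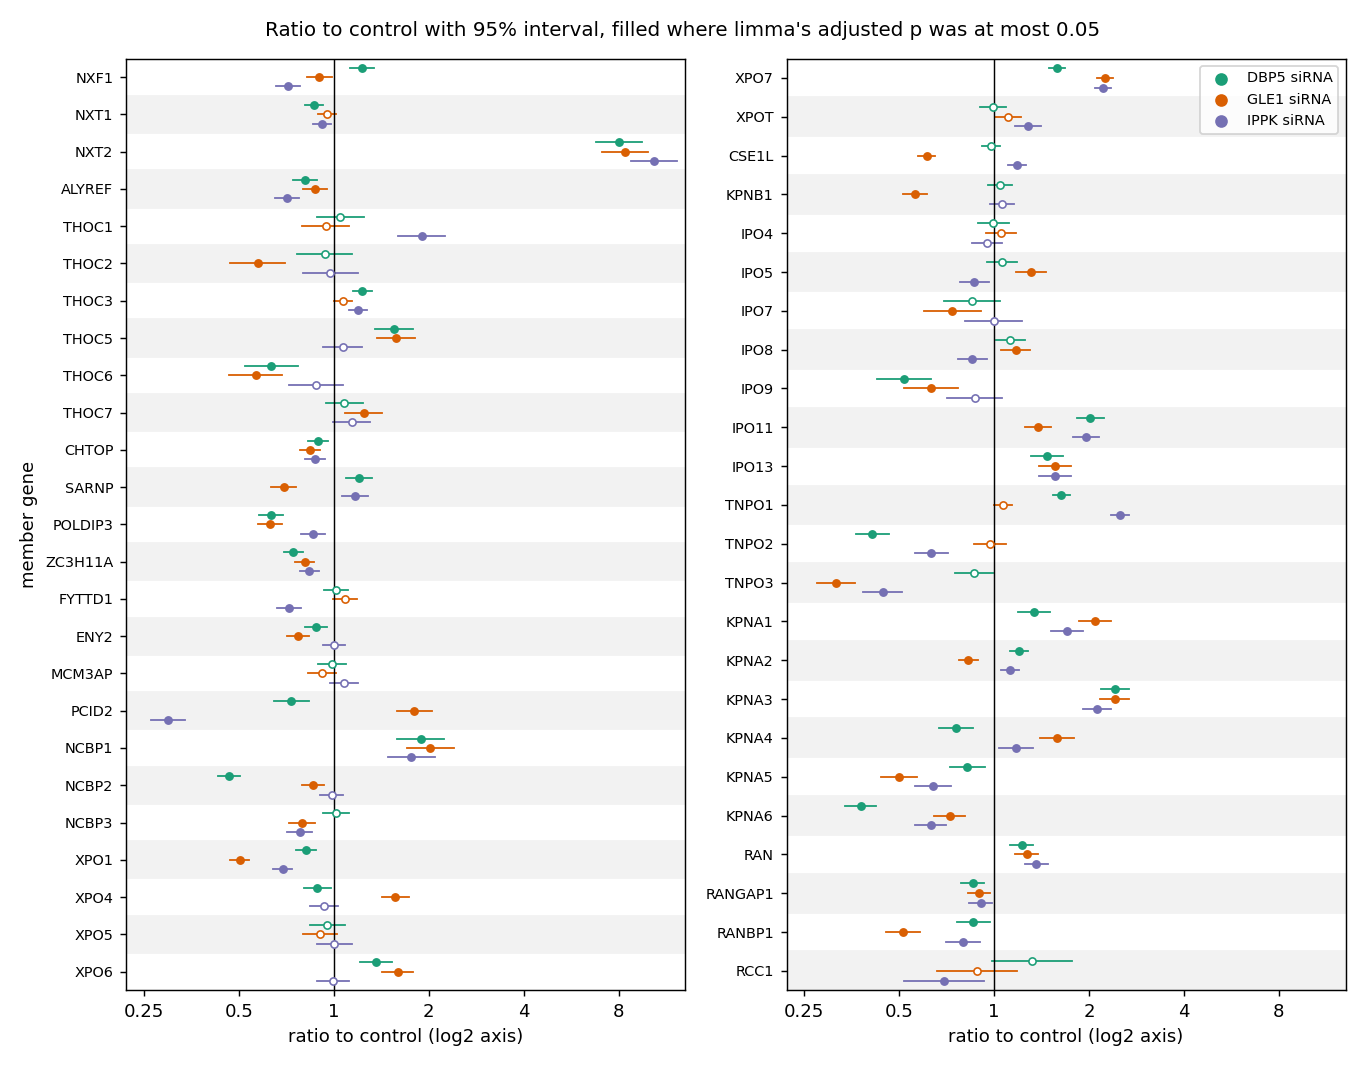
Ratio to control of each of the 49 members after DBP5, GLE1 and IPPK knock-down (horizontal log2 axis), with the 95% interval from limma's standard error; filled points had an adjusted p of at most 0.05. The importin alpha genes are filled in all 3 knock-downs, and IPO4, XPO5 and MCM3AP are open in all 3.

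Ran and its regulators are 4 genes, of which 2 fell (50%) and 1 rose (25%) after DBP5 knock-down, beside 27.1% and 27.3% of all genes. GLE1 siRNA gave the same counts, beside 30.4% and 32.1%, and IPPK siRNA 3 lower (75%) and 1 higher (25%), beside 28.2% and 27.3%. RAN, whose GTP form loads exportins and empties importins, read 0.995, 1.06 and 0.948 on the control arrays, 1.30, 1.17 and 1.21 after DBP5, 1.28, 1.28 and 1.25 after GLE1 and 1.36, 1.37 and 1.36 after IPPK knock-down. All knock-down arrays were above control. RAN was 1.23 ± 0.0647 of control with DBP5 siRNA, 1.27 ± 0.0181 with GLE1 siRNA and 1.36 ± 0.00520 with IPPK siRNA (SD, n = 3), with adjusted p of 0.000935, 0.000255 and 4.8e-05. RANBP1, a helper of GTP hydrolysis on Ran, read 0.967, 0.999 and 1.03 on the control arrays, 0.905, 0.813 and 0.864 after DBP5, 0.528, 0.510 and 0.510 after GLE1 and 0.696, 0.851 and 0.855 after IPPK knock-down. All knock-down arrays were below control, those of GLE1 by far the most. RANBP1 was 0.860 ± 0.0464 of control with DBP5 siRNA, 0.516 ± 0.0106 with GLE1 siRNA and 0.797 ± 0.0907 with IPPK siRNA (SD, n = 3), with adjusted p of 0.04, 1.8e-06 and 0.00516, and it was 1.67-fold lower after GLE1 than after DBP5 knock-down (adjusted p = 2.0e-05). The fall after DBP5 knock-down lost the threshold without any 1 of the control or GLE1 siRNA arrays and without DBP5 replicate 2 or 3, with adjusted p up to 0.13. RCC1, the nucleotide exchange factor of Ran on chromatin, read 1.00, 0.879 and 1.13 on the control arrays, 1.20, 1.01 and 1.89 after DBP5, 0.911, 0.870 and 0.863 after GLE1 and 0.704, 0.691 and 0.687 after IPPK knock-down. A single DBP5 siRNA array stood high, and the IPPK siRNA arrays lay below control. RCC1 was 1.32 ± 0.466 of control with DBP5 siRNA, 0.881 ± 0.0260 with GLE1 siRNA and 0.694 ± 0.00888 with IPPK siRNA (SD, n = 3), with adjusted p of 0.103, 0.438 and 0.0353. Its fall after IPPK knock-down did not pass without control replicate 1 or 3 (adjusted p = 0.0768 and 0.117), nor without any 1 of the IPPK siRNA arrays. RANGAP1, which switches Ran off in the cytoplasm, fell a little after each knock-down, with ratios from 0.855 to 0.907.

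The knock-downs were also compared with each other, mean against mean, with the spread still taken from all 12 arrays, control included. After GLE1 as compared with DBP5 knock-down, 16 members were lower and 12 higher (32.7% and 24.5%), beside 27.2% and 27.7% of all genes. Against IPPK knock-down, GLE1 knock-down left 22 members lower and 14 higher (44.9% and 28.6%), beside 29.5% and 31.2%. After DBP5 as compared with IPPK knock-down, 17 were lower and 14 higher (34.7% and 28.6%), beside 24.4% and 24.7%. The median log2 difference of the members was 0.02, -0.05 and -0.07 in these 3 comparisons, where that of all genes was 0.04, 0.04 and 0.01. TNPO3 was the member lowered most after GLE1 relative to DBP5 knock-down, by 2.74-fold (adjusted p = 3.5e-07), and TNPO1 the member lowered most relative to IPPK knock-down, by 2.35-fold (adjusted p = 4.2e-09). KPNA4 and TNPO2 were 2.09-fold and 2.36-fold higher with GLE1 than with DBP5 siRNA (adjusted p = 1.3e-06 and 3.6e-07). THOC1 was 2.01-fold lower after GLE1 and 1.81-fold lower after DBP5 than after IPPK knock-down (adjusted p = 2.0e-05 and 0.00011). NXT2 did not pass between GLE1 and DBP5 knock-down, with a ratio of 1.04 (adjusted p = 0.69), and it was 1.23-fold lower with GLE1 siRNA and 1.28-fold lower with DBP5 siRNA than with IPPK siRNA (adjusted p = 0.0339 and 0.0187).

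A further 25 genes of RNA export and nuclear transport, outside the 49, were read in the same fit, of which 24 were well above background on all 12 arrays. Among these 24, 8 fell and 7 rose after DBP5 knock-down, beside 27.1% and 27.3% of all genes, 12 fell and 6 rose after GLE1 knock-down, beside 30.4% and 32.1%, and 7 fell and 6 rose after IPPK knock-down, beside 28.2% and 27.3%. KPNA7, an importin alpha that most body cells lack, read 0.783, 1.24 and 1.03 on the control arrays, 2.17, 1.83 and 1.81 after DBP5, 7.15, 7.08 and 6.27 after GLE1 and 4.65, 5.39 and 5.50 after IPPK knock-down. Every knock-down array was above control, and those of GLE1 the highest. KPNA7 was 1.93 ± 0.200 of control with DBP5 siRNA, 6.82 ± 0.490 with GLE1 siRNA and 5.17 ± 0.460 with IPPK siRNA (SD, n = 3), with adjusted p of 0.000328, 7.1e-08 and 3.7e-07. RANBP3, a cofactor of XPO1, was 2.06 ± 0.109, 1.65 ± 0.0639 and 2.03 ± 0.0565 of control, and RANBP6, an importin close to IPO5, 1.78 ± 0.0806, 1.13 ± 0.0414 and 1.90 ± 0.0744 in the same order. The remaining gene, LUZP4, an adaptor related to TREX, was well above background on no control array and entered the test through the 3 DBP5 siRNA arrays, so its calls are not counted. CETN3, a centrin, and RANBP17, an exportin close to XPO7, fell after GLE1 knock-down to 0.471 ± 0.0135 and 0.530 ± 0.0249 of control. RANBP17 went the other way after IPPK knock-down, to 1.16 ± 0.0289 of control (SD, n = 3; adjusted p = 0.00801). ZC3H18, a partner of the cap-binding complex, fell to 0.607 ± 0.0310 after GLE1 knock-down. NUTF2, the carrier that brings Ran back into the nucleus, rose after DBP5 and GLE1 knock-down (1.25 ± 0.147 and 1.28 ± 0.0205) and fell after IPPK knock-down to 0.546 ± 0.0165 of control (adjusted p = 0.00463, 0.00191 and 3.6e-06).

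As a view of the fraction itself, RNAs known to stay in the nucleus were read on the same arrays. MALAT1, KCNQ1OT1 and MEG3 were each well above background on all 12 arrays, control arrays included. NEAT1 and TUG1 were also listed for this view and have no value here. MALAT1 was 0.689 ± 0.0775 of control with DBP5 siRNA, 0.809 ± 0.256 with GLE1 siRNA and 0.472 ± 0.148 with IPPK siRNA, of which the fall after IPPK knock-down passed the test (adjusted p = 0.00378). KCNQ1OT1 was 1.59 ± 0.153, 1.85 ± 0.00564 and 1.17 ± 0.0587, past the test in each, and MEG3 0.956 ± 0.107, 1.27 ± 0.0618 and 1.04 ± 0.0819, past it after GLE1 knock-down. These RNAs moved in different directions, and their part in the levels of the members was not tested.

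Of the 49 members, 15 had more than 1 probe, which read different stretches of the transcripts. In 2 of them, POLDIP3 and IPO5, probes passed the test in opposite directions. For PCID2, CSE1L, KPNB1, KPNA6 and RAN the probes gave the same direction wherever the brighter probe passed. RAN was 1.20 ± 0.0928, 1.27 ± 0.0583 and 1.43 ± 0.0170 of control by its dimmer probe. Among the 35 members named with their arrays, 83 ratios to control passed the test. All 83 had the same direction on each of the 3 slides, the knock-down array being set against that slide's control array. The test that picked these ratios used the same arrays, so such agreement was nearly fixed in advance and gives no separate support.

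**Figure D4:**
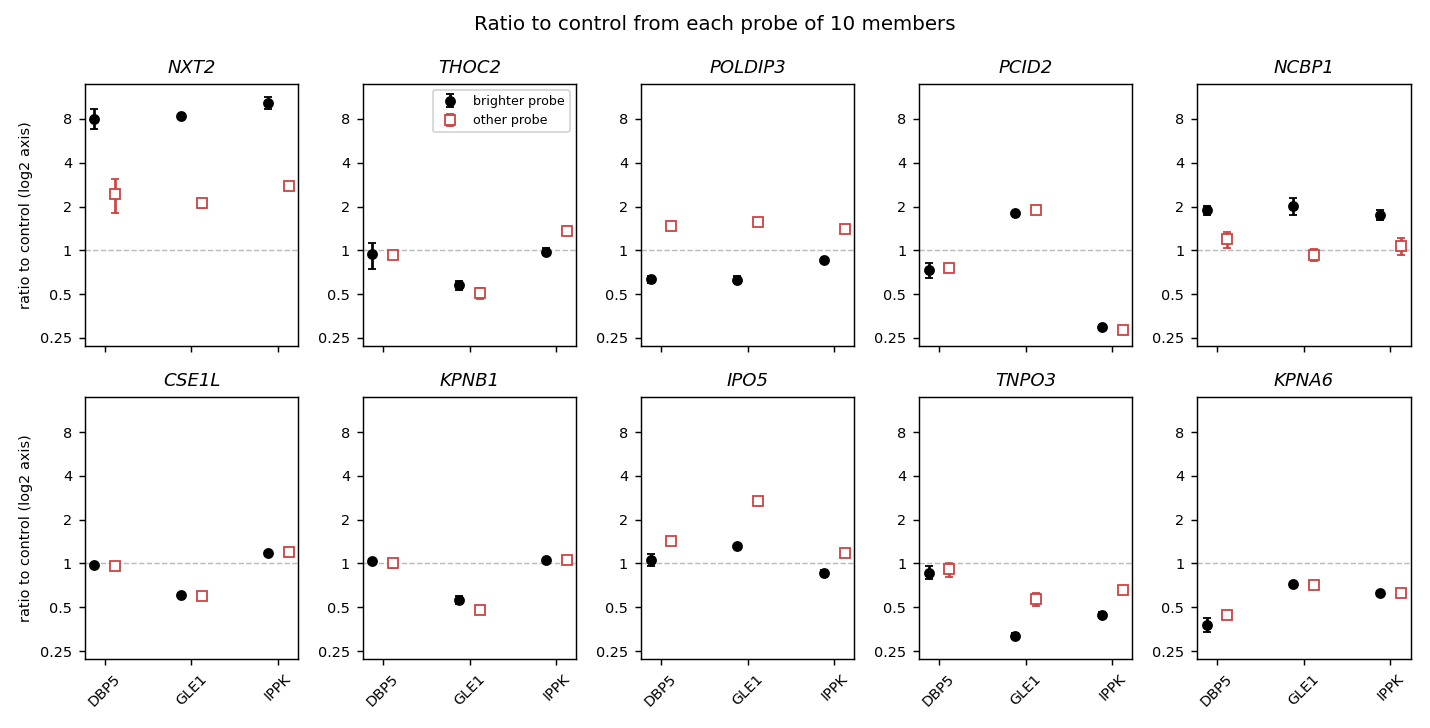
Ratio to control for each siRNA (vertical log2 axis; bars are the SD of 3 arrays) from the brighter probe (filled circles) and the other probe (open squares) of 10 members. Probes of PCID2, CSE1L, KPNB1 and KPNA6 lie close together, those of NXT2 and TNPO3 differ in size, and those of POLDIP3 lie on opposite sides of 1.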

How the data were processed

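RNA from the cytoplasm of U2OS cells was hybridised to 12 Agilent arrays in a single colour, with 3 arrays per siRNA. The deposited intensity values came from Agilent Feature Extraction 10.7.3.1, per the file headers, as background-subtracted processed signals of 43118 spots an array. The authors also deposited a table of log2 values, used only as an alternative; its columns followed the median spot signal without background subtraction. The authors' methods state LOESS normalisation in R.

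Here control spots were dropped, outlier spots set to missing (169 to 358 an array) and spots of a probe averaged. No spot was saturated. Log2 intensities were normalised between arrays by cyclic loess (limma 3.58.1 in R 4.3.3; 3 iterations, span 0.7). Of 34127 probes, 77.5% were named through their accession in RefSeq's gene table, and other probes kept the name in the file. Each of 27522 gene names was represented by its brightest probe. A gene was tested where that probe was well above background on the 3 arrays of any siRNA, which held for 20821. limma fitted a mean per siRNA over all 12 arrays, with Benjamini-Hochberg adjustment within each comparison at 0.05. Other probes of a member were tested in a fit over all probes that passed the same filter. The number of arrays limits the precision.

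Members and lists were chosen with earlier results of these data known. Members past the threshold and at least 1.5-fold from control, or between knock-downs, were named with every array, as were NXF1, NXT1, NXT2, ALYREF, XPO1, KPNB1 and RAN. Up to 8 other transport genes with the largest changes were named. Replicate numbers, which match the slides, paired the arrays. Deviations from group means correlated at 0.318 to 0.513 for arrays of the same number and at -0.285 to -0.049 otherwise. Such deviations cancel within a group, so the negative values follow from the positive ones and add no separate support. On simulated data for these 20821 genes, 200 genes were changed by 1 on the log2 scale. Of these, 175 were recovered for DBP5 siRNA, 181 for GLE1 siRNA and 175 for IPPK siRNA, with 8, 15 and 13 false calls. The simulated noise was independent between arrays, and far fewer genes changed than passed the test here. These counts therefore do not give the error rate of the real arrays. Alternatives were 75th percentile scaling, quantile normalisation, normexp (offset 50, on the median signal), the authors' values, other filters and probes, a replicate block, a two-sided paired t-test on arrays of the same number, 6-array fits and leaving out each array. The methods name a paired t-test for the study at large, without saying that it was used on the arrays, and rank product lists for the arrays, which were not remade here. Python 3.11.15 drew the plots with matplotlib 3.10.9.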

Additional observations from a re-analysis of the deposited data

How the results depend on the processing

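The 83 ratios to control that passed the test among the named members kept their direction under every change of normalisation, background, filter or array set that was run, but some no longer passed. KPNA4 after IPPK knock-down was lost under 75th percentile scaling (1 lost), and with RANBP1 after DBP5 knock-down under the authors' values (2). Quantile normalisation lost 3, ALYREF after GLE1 and XPO4 and RANBP1 after DBP5 knock-down. The normexp correction lost 3, NXF1 after GLE1, KPNA4 after IPPK and RANBP1 after DBP5 knock-down. Without a filter on dim probes 4 were lost, NXF1 after GLE1, XPO4 and RANBP1 after DBP5 and RCC1 after IPPK knock-down. Fits of the 6 arrays compared lost 2, NXT1 after IPPK and XPO4 after DBP5 knock-down. Only the choice of probe reversed any. The other probe of POLDIP3 gave log2 ratios of 0.55 with DBP5 siRNA, 0.65 with GLE1 siRNA and 0.48 with IPPK siRNA, and the mean of its probes 0.13 after IPPK knock-down. The other probe of NCBP1 gave -0.10 after GLE1 knock-down. For IPO5 after IPPK knock-down, the mean of probes gave 0.014 and the other probe 0.24. The mean of probes also lost POLDIP3 after DBP5 and GLE1 knock-down, and the other probe NCBP1 after DBP5 and IPPK knock-down. The cause was not tested. With the replicate number as a block, which uses the pairing, 17 members were lower and 16 higher after DBP5 knock-down (29.2% and 28.6% of all genes), 22 and 16 after GLE1 (31.9% and 34.1%) and 19 and 17 after IPPK knock-down (30.5% and 29%), and 1 of the 83 calls was lost, XPO4 after DBP5 knock-down (adjusted p = 0.0645). A paired t-test on arrays of the same replicate number kept 53 of the 83 calls after adjustment and lost 30. Those lost after DBP5 knock-down were NXF1, NXT1, ALYREF, THOC5, THOC6, SARNP, POLDIP3, PCID2, XPO1, XPO4, XPO6, IPO9, IPO13, KPNA1, KPNA4, KPNA5, RAN and RANBP1. After GLE1 knock-down they were NXF1, ALYREF, THOC6, NCBP2 and IPO9, and after IPPK knock-down NXT1, SARNP, POLDIP3, IPO5, KPNA4, RANBP1 and RCC1. By this test 5 members were lower and 7 higher after DBP5 knock-down, where 12.3% and 12% of all genes were. The counts were 15 and 17 after GLE1 knock-down (22.9% and 24.3% of all genes) and 12 and 14 after IPPK knock-down (17.8% and 19.1%). Between knock-downs they were 9 lower and 8 higher for GLE1 against DBP5 (13% and 12.8%), 19 and 14 for GLE1 against IPPK (24.2% and 25%), and 8 and 7 for DBP5 against IPPK (9.6% and 9.23%). The test takes its spread from 3 differences per gene. Leaving out 1 array at a time lost 44 of 996 calls. Scaling to the 75th percentile moved the median of all genes between GLE1 and IPPK knock-down to 0.12 on the log2 scale.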
